A study of Homo sapiens with 6 samples.

Results

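NFE2L2, its repressors KEAP1 and BACH1, and 7 of its target genes were followed in HCT116 cells, a human colorectal carcinoma cell line, after knockdown of STRIP2. The members were the rows of the deposited gene table whose symbol equalled one of 10 names (NFE2L2, KEAP1, BACH1, NQO1, SRXN1, TXNRD1, OSGIN1, AKR1C1, AKR1B10 and ME1). All 10 were found, once each, among the 61806 genes of the table. The si-NC group was 3 RNA-seq libraries of cells labelled wildtype that received a control short interfering RNA. The si-STRIP2 group was 3 libraries of cells of the same line labelled STRIP2 knockdown, which received a short interfering RNA against STRIP2. Both groups came from 1 cell line grown in the same medium. The number of short interfering RNA sequences, their dose and the time of harvest are not given in the sources used here. Whether replicate libraries represent separate cultures is not stated in the labels, so the p-values measure the spread between these libraries, which may be technical.

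NFE2L2 encodes NRF2, a basic leucine zipper transcription factor that pairs with small MAF proteins on antioxidant response elements and turns on genes for detoxification, thiol reduction and NADPH supply. KEAP1 is the adaptor that brings NRF2 to a CUL3 ubiquitin ligase, and oxidants or electrophiles that modify KEAP1 let NRF2 escape degradation. BACH1 is a haem-binding repressor that occupies the same kind of element with the same small MAF partners. NRF2 is controlled largely at the protein level, and these libraries measured transcripts. In epithelial tumours the pathway is known for protection from oxidative damage and from drugs.

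The core of an antioxidant response element is written TGACNNNGC. It was searched on both strands in RefSeq promoter windows on GRCh38.p14, each holding 250 bases before and 50 bases from an annotated start site. The table held 14 windows for 9 of the 10 members (AKR1B10 had no entry). KEAP1, TXNRD1 and ME1 had a match, which is 33.3% of the members with a window, beside 16.1% of all 27305 genes in the table. Per window, the share with a match was 13.3% of 35116. The 7 matches are shown with 10 bases on each side, 5′ to 3′ on the strand of the gene, with the matched bases in capitals. Positions count from the first transcribed base as 1.
KEAP1, chr19:10502807-10502835, minus strand, first matched base at -54: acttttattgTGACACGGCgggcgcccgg
KEAP1, chr19:10502784-10502812, minus strand, first matched base at -31, motif on the other strand: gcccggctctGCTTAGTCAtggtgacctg
TXNRD1, chr12:104215670-104215698, plus strand, first matched base at -99: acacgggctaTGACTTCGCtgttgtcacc
TXNRD1, chr12:104215761-104215789, plus strand, first matched base at -8, motif on the other strand: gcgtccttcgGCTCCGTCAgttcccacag
TXNRD1, second start site, chr12:104286920-104286948, plus strand, first matched base at -102, motif on the other strand: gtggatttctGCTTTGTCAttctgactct
ME1, chr6:83431170-83431198, minus strand, first matched base at -137: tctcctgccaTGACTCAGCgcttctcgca
ME1, chr6:83431022-83431050, minus strand, first matched base at 12, motif on the other strand: gctgcagtcaGCACCGTCAccccagcagc
The first ME1 match was the only one of the 7 that overlapped TGANTCA, the element bound by AP-1 factors, which 7.71% of all windows hold. A match to these letters is a description of the sequence, and no binding was measured. Among the other NRF2 targets described below, 13 of the 31 with a window (41.9%) held the core. The 3 members with a match did not move in 1 direction: KEAP1 was higher and TXNRD1 and ME1 were lower in si-STRIP2 cells.

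Total counts ranged from 17184963 to 21721218 per library, and 15687 genes passed the filter on low counts and were tested. STRIP2 itself stood at 72.6% of its control FPKM in the si-STRIP2 libraries (log2 fold change, written log2FC below, -0.46; standard error, SE, 0.083; edgeR adjusted p = 1.62e-05). FPKM values are fragment counts scaled by the exonic size of the gene and by the total of the library. A gene was called when its edgeR adjusted p, corrected over all tested genes, was under 0.05, and fold changes below 0 mean lower in si-STRIP2. The share of mitochondrial counts was 4.88% to 8.88% in si-NC and 5.73% to 6.30% in si-STRIP2. Of 10 colorectal epithelium markers, EPCAM, KRT8, KRT18 and KRT19 were above 100 FPKM on average in both groups, while CDX1 was at 0 in all libraries and VIL1 and LGALS4 were near 0. The summed FPKM of these markers was 756.8 to 786.6 in si-NC and 716.6 to 741.6 in si-STRIP2. Single markers moved further than this sum. Of 7 tested, 4 were lower and 2 higher, beside 27.0% and 27.8% of all tested genes. CDH1 (log2FC -0.60, edgeR adjusted p = 1.57e-14) and CLDN7 (-0.44, 2.77e-11) were among the lower ones. KRT19 (0.22, 1.85e-05) and CDX2 (0.38, 0.00285) were higher. The part of these markers in the results was not tested. Of the 7 fibroblast markers, 6 stayed under 0.1 FPKM in all libraries and the sum was 2.22 to 2.68 in si-NC and 1.94 to 2.2 in si-STRIP2, nearly all of it COL1A1. The sums were 0.31 to 0.60 and 0.27 to 0.51 for 6 immune markers, and 0.37 to 0.46 and 0.16 to 0.23 for 4 endothelial markers. Of the endothelial markers, 3 stayed under 0.1 FPKM in all libraries, and most of the sum was KDR. KDR, named after its values were seen, had means of 0.343 FPKM in si-NC and 0.160 in si-STRIP2 (log2FC -1.07, SE 0.252, edgeR adjusted p = 0.000528). In bulk RNA, fewer cells of a type and less RNA per cell cannot be told apart.

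The transcript of the activator and that of its repressor KEAP1 moved in opposite directions, BACH1 moved in the direction of NFE2L2, and 5 of the 6 tested targets were modestly lower. Of the 9 members tested, 7 were lower and 2 were higher in si-STRIP2 cells at an edgeR adjusted p under 0.05. Over all tested genes 54.8% were called, 27.0% lower and 27.8% higher, so that a call alone is common in these data. The median log2FC was -0.41 over the 9 tested members and 0.014 over all tested genes. None of the 9 tested members changed by 2-fold, a size reached by 4.47% of all tested genes. The groups were free of overlap in FPKM for 7 of the 9 tested members, beside 58.6% of all tested genes. In a test against a change of 1.2-fold, 4 members were called lower and 1 higher, where 23.7% of all tested genes were called, 12.4% lower and 11.3% higher. DESeq2 called 5 members lower and 1 higher, where it called 46.1% of the genes, 23.5% lower and 22.7% higher. The members called were 7 lower and 2 higher with DESeq2 size factors (54.6% of all genes called) and with no filter (25.5%). They were 7 lower and 1 higher with a filter of 1 FPKM (60.7%), and 5 lower and 1 higher under limma with a pseudocount of 1 (56.2%) or of 0.1 (56.1%). With 1 library left out, 5 to 7 were lower and 1 to 2 higher, where 47.9%, 49.6% and 53.0% of all genes were called without si-NC replicates 1, 2 and 3, and 48.8%, 49.6% and 49.6% without si-STRIP2 replicates 1, 2 and 3.

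**Figure D1:**
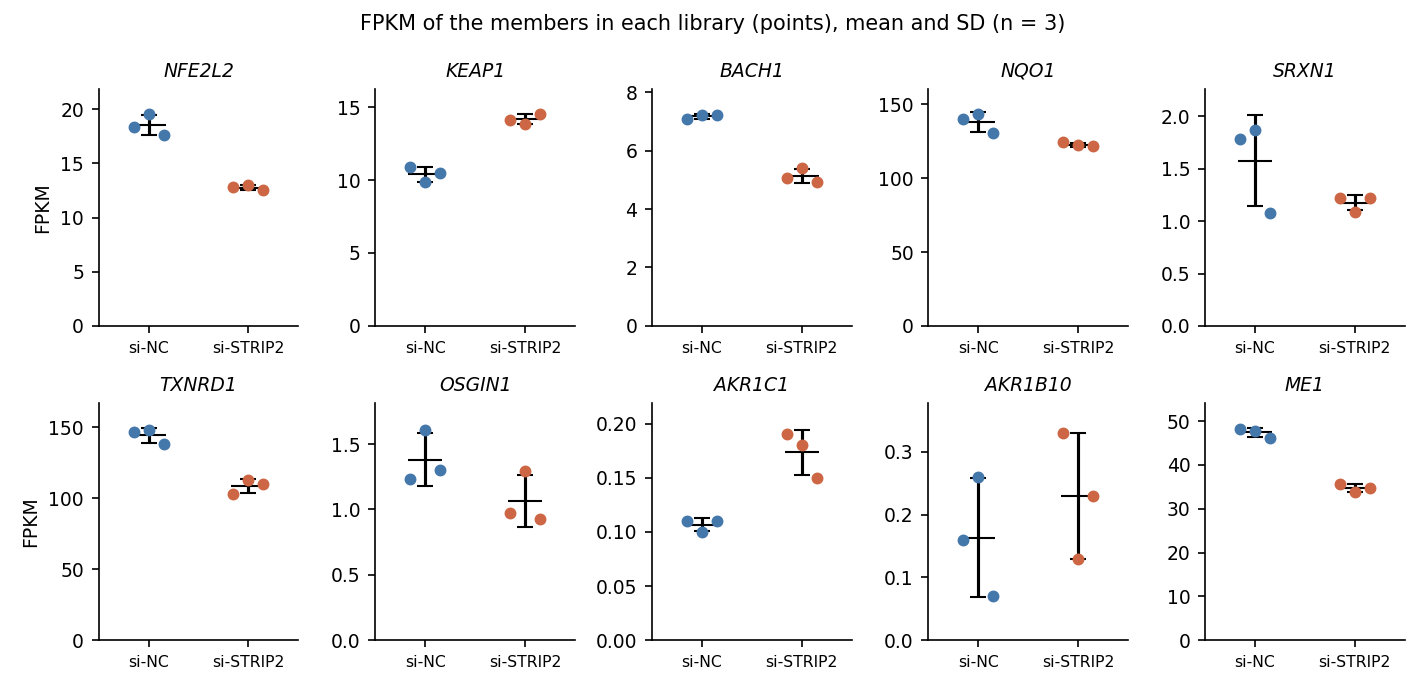
FPKM (vertical axis, linear and starting at 0, with its own range in each panel) of the 10 members in the 3 si-NC and 3 si-STRIP2 libraries. Points are libraries, the horizontal bar is the mean and the error bar the SD (n = 3). The groups are apart for NFE2L2, KEAP1, BACH1, NQO1, TXNRD1, AKR1C1 and ME1 and overlap for SRXN1, OSGIN1 and AKR1B10.

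NFE2L2 (ENSG00000116044, chromosome 2, 177218667 to 177392756, minus strand), which encodes the activator, had FPKM values of 18.38, 19.52 and 17.65 in si-NC and of 12.77, 12.99 and 12.54 in si-STRIP2. Every si-STRIP2 library lay below every control library. The mean went from 18.5 ± 0.943 to 12.8 ± 0.225 FPKM (SD, n = 3), which left 68.95% of the control level. The log2FC was -0.54 (SE 0.041, edgeR adjusted p = 2.99e-13), and it lay between -0.57 and -0.50 in all 14 alternative analyses. The deposited coordinates of NFE2L2 overlap those of HNRNPA3 and AGPS on the opposite strand, which held 272% and 81.1% as many counts as NFE2L2. Whether counting took strand into account is not given in the sources used here. Neither neighbour was called (HNRNPA3 log2FC -0.026, SE 0.042, edgeR adjusted p = 0.622; AGPS -0.0071, SE 0.040, edgeR adjusted p = 0.894). The exonic size behind the FPKM of NFE2L2 was 14975 bases, while its exons in GENCODE release 29 cover 5979 bases. At that smaller size the same counts would give 46.4 FPKM in si-NC and 32.0 in si-STRIP2, with no effect on the fold change. How many of the counts fall in those exons is not known.

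KEAP1 (ENSG00000079999, chromosome 19, 10486125 to 10503558, minus strand), the repressor that marks NRF2 for degradation, rose, unlike BACH1. Its FPKM was 10.87, 9.85 and 10.46 in si-NC and 14.13, 13.85 and 14.53 in si-STRIP2, with no overlap. The mean rose from 10.4 ± 0.513 to 14.2 ± 0.342 FPKM (SD, n = 3), or 136.3% of the control level. Its log2FC was 0.44 (SE 0.055, edgeR adjusted p = 2.75e-08) and was between 0.39 and 0.48 in the 14 alternatives. KEAP1 had 2 promoter windows, and 1 of them held a match. Both response element matches shown above lie within the 54 bases before the start site of that window. They also lie inside the deposited coordinates of KEAP1.

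BACH1 (ENSG00000156273, chromosome 21, 29194071 to 29630751, plus strand), the haem-regulated repressor, had FPKM values of 7.08, 7.23 and 7.21 in si-NC and of 5.08, 5.39 and 4.92 in si-STRIP2. The groups did not overlap, and the 3 control values lay close together. The mean fell from 7.17 ± 0.0815 to 5.13 ± 0.239 FPKM (SD, n = 3). The fitted log2FC was -0.49 (SE 0.052, edgeR adjusted p = 9.95e-10). Genes that overlap BACH1 in the deposited coordinates held at most 0.462% as many counts each.

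The balance of the 3 regulators was followed within each library as a ratio of FPKM values. NFE2L2 to KEAP1 was 1.69, 1.98 and 1.69 in si-NC and 0.904, 0.938 and 0.863 in si-STRIP2. The ratio was lower in every si-STRIP2 library, with means of 1.79 ± 0.169 and 0.902 ± 0.0375 (SD, n = 3) and a log2 difference of -0.98 (exact permutation test, 2-sided, p = 0.1, the smallest that 3 against 3 allows). NFE2L2 to BACH1 was 2.60, 2.70 and 2.45 in si-NC and 2.51, 2.41 and 2.55 in si-STRIP2. These values overlapped, with means of 2.58 ± 0.127 and 2.49 ± 0.0722 (SD, n = 3) and a log2 difference of -0.051 (exact permutation test, 2-sided, p = 0.4). The size of each ratio depends on the exonic sizes in the table, and the difference between groups does not.

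**Figure D2:**
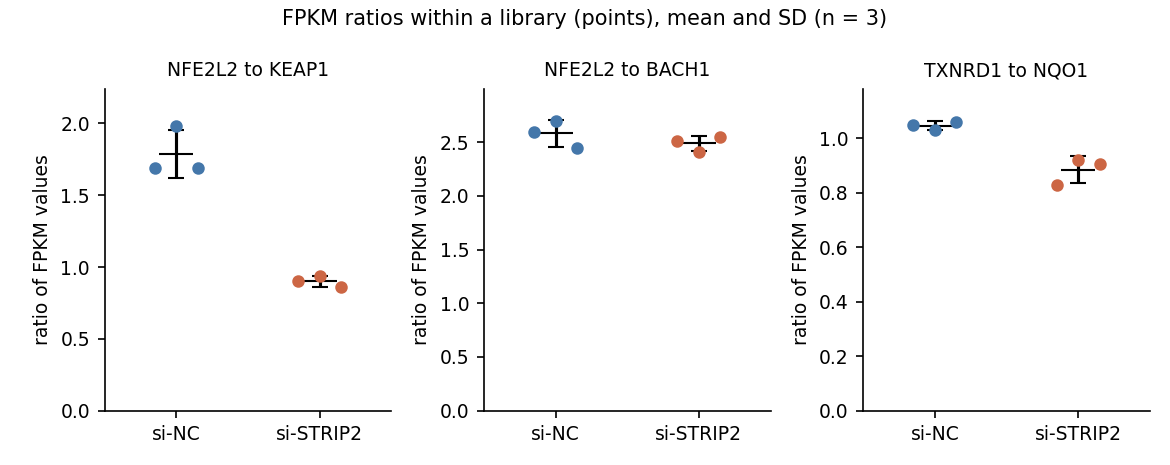
Ratios of FPKM values within each library (vertical axis, no unit, starting at 0) for NFE2L2 to KEAP1, NFE2L2 to BACH1 and TXNRD1 to NQO1. Points are libraries, the horizontal bar is the mean and the error bar the SD (n = 3). NFE2L2 to KEAP1 is between 1.69 and 1.98 in si-NC and between 0.863 and 0.938 in si-STRIP2, while NFE2L2 to BACH1 overlaps between the groups.

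The 7 target genes summed to 318.1 to 342.9 FPKM in the si-NC libraries and to 265.7 to 271.6 FPKM in the si-STRIP2 libraries. TXNRD1, NQO1 and ME1 made up 98.9% to 99.2% of that sum in each library. All 3 were lower in si-STRIP2 cells, and the groups did not overlap for any of them.

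TXNRD1 (ENSG00000198431, chromosome 12, 104215779 to 104350307, plus strand) encodes the cytosolic selenoprotein that reduces thioredoxin with NADPH. Its FPKM was 146.89, 147.89 and 138.52 in si-NC and 102.97, 112.79 and 110.23 in si-STRIP2. The mean fell from 144.4 ± 5.15 to 108.7 ± 5.09 FPKM (SD, n = 3), with a log2FC of -0.41 (SE 0.046, edgeR adjusted p = 1.91e-09). RPL18AP3, a ribosomal protein pseudogene inside TXNRD1 on the same strand, held 8.93% as many counts and went the other way (log2FC 0.14, SE 0.046, edgeR adjusted p = 0.00847; 0.0712 without si-STRIP2 replicate 2).

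NQO1 (ENSG00000181019, chromosome 16, 69706996 to 69726668, minus strand), the quinone reductase often used as a readout of NRF2 activity, had the smallest change of the tested members. Its FPKM was 140.36, 143.26 and 130.74 in si-NC and 124.34, 122.35 and 121.64 in si-STRIP2. The groups did not overlap, and 88.89% of the control level remained. The edgeR log2FC was -0.17 (SE 0.041, edgeR adjusted p = 0.000570), a change under 1.2-fold, and the test against 1.2-fold did not call it.

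TXNRD1 and NQO1, the most abundant members, stood in a different order in the 2 groups at the deposited sizes. In si-NC the mean of TXNRD1 was above that of NQO1 by about the spread of either gene, 144.4 ± 5.15 against 138.1 ± 6.55 FPKM (SD, n = 3). In si-STRIP2 it was below, 108.7 ± 5.09 against 122.8 ± 1.40 (SD, n = 3). At the GENCODE 29 sizes the means would be 144 against 126 FPKM in si-NC and 109 against 112 in si-STRIP2. The gap in si-STRIP2 would then be within the spread of TXNRD1, so the order depends on the sizes used. Within libraries the TXNRD1 to NQO1 ratio was 1.05, 1.03 and 1.06 in si-NC and 0.828, 0.922 and 0.906 in si-STRIP2. The groups did not overlap (log2 difference -0.24, exact permutation test, 2-sided, p = 0.1, the smallest possible). This ratio was chosen after its values were seen.

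ME1 (ENSG00000065833, chromosome 6, 83210402 to 83431051, minus strand), the cytosolic malic enzyme that makes NADPH from malate, had FPKM values of 48.15, 47.87 and 46.27 in si-NC and of 35.64, 33.74 and 34.81 in si-STRIP2. The groups were well apart, with 73.2% of the control level remaining. Its log2FC was -0.45 (SE 0.041, edgeR adjusted p = 2.05e-11). In order of FPKM, a level per length, ME1 came after TXNRD1 and NQO1 in both groups, and NFE2L2, KEAP1 and BACH1 followed, except that KEAP1 was above NFE2L2 in si-STRIP2. SRXN1 and OSGIN1 came next and did not differ from each other beyond their spread at the deposited sizes, and AKR1C1 and AKR1B10 were last. At the GENCODE 29 sizes and with the same counts, NFE2L2 (46.4 and 32.0 FPKM) would stand beside ME1 in both groups. The deposited size of OSGIN1 is 1.61 times its GENCODE 29 size. With the same counts at that size, OSGIN1 (2.22 and 1.71 FPKM) would stand above SRXN1 (1.48 and 1.1). The order of these genes thus depends on the sizes used.

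SRXN1 and OSGIN1 were near 1 FPKM, and their calls rested on few counts. SRXN1 (ENSG00000271303, chromosome 20, 646615 to 653200, minus strand), the sulfiredoxin that restores overoxidised peroxiredoxins, had 98, 82 and 47 counts in si-NC and 58, 48 and 53 in si-STRIP2. In FPKM, si-NC replicate 3 lay just below all si-STRIP2 libraries and the other controls above them (1.78, 1.87 and 1.08 against 1.22, 1.09 and 1.22). The fitted log2FC was -0.44 (SE 0.185, edgeR adjusted p = 0.0427). The call was lost in 5 of the 6 fits with 1 library left out: the edgeR adjusted p was 0.214 without si-NC replicate 1, 0.184 without si-NC replicate 2, and 0.0656, 0.121 and 0.0591 without si-STRIP2 replicates 1, 2 and 3. Without si-NC replicate 3 the log2FC was -0.64 (edgeR adjusted p = 0.00227). DESeq2 did not call SRXN1 (adjusted p = 0.115).

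OSGIN1 (ENSG00000140961, chromosome 16, 83931311 to 83966332, plus strand), an oxidative stress-induced growth inhibitor, had 149, 155 and 124 counts in si-NC and 101, 125 and 89 in si-STRIP2. The groups overlapped, since in FPKM si-STRIP2 replicate 2, at 1.29, lay above si-NC replicate 1, at 1.23. The log2FC was -0.38 (SE 0.135, edgeR adjusted p = 0.0183). Its call was lost without si-NC replicate 2 (edgeR adjusted p = 0.127), without si-STRIP2 replicate 1 (0.0912) and without si-STRIP2 replicate 3 (0.0897), and under DESeq2 (0.0527). MLYCD, which overlaps OSGIN1 on the same strand, held 20.2% as many counts.

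The aldo-keto reductases AKR1C1 and AKR1B10, which reduce steroids, aldehydes and ketones, were almost silent in these cells. AKR1C1 (ENSG00000187134, chromosome 10, 4963253 to 4983283, plus strand) was counted 20, 15 and 17 times in si-NC and 31, 28 and 23 in si-STRIP2, all under 0.2 FPKM. The groups did not overlap, and the log2FC was 0.72 (SE 0.271, edgeR adjusted p = 0.0244), the one target called higher. The call was lost without si-NC replicate 1 (edgeR adjusted p = 0.0652), si-NC replicate 2 (0.0803), si-STRIP2 replicate 1 (0.0738) or si-STRIP2 replicate 2 (0.0635). DESeq2 gave an adjusted p of 0.1.

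AKR1C1 lies among close copies, and reads that match more than 1 of them could be assigned or dropped in ways that the sources used here do not describe. AKR1C3 went the other way, with 54, 46 and 37 counts in si-NC and 33, 20 and 17 in si-STRIP2 (log2FC -0.90, SE 0.238, edgeR adjusted p = 0.00176). AKR1C2 had 4 to 11 counts per library and was not tested. With the 3 genes summed, the log2FC was -0.30 (edgeR adjusted p = 0.135), so the direction of AKR1C1 is uncertain. AKR1B10 (ENSG00000198074, chromosome 7, 134527567 to 134541412, plus strand) was counted 6, 8 and 2 times in si-NC and 11, 4 and 7 in si-STRIP2 and did not pass the filter. With no filter its log2FC was 0.51 (edgeR adjusted p = 0.561), and a difference was not detectable at this depth. AKR1B15, its near copy, was at 0 in all libraries.

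**Figure D3:**
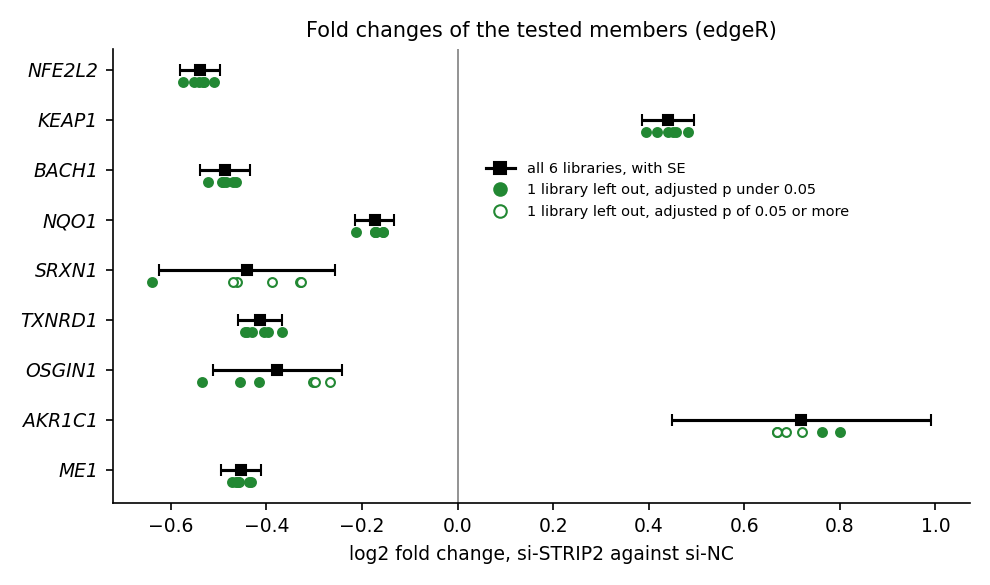
Log2FC of si-STRIP2 against si-NC (horizontal axis) for the 9 tested members. Squares with bars are the edgeR value and its SE from all 6 libraries, and circles are the fits with 1 library left out, filled where the edgeR adjusted p was under 0.05. The circles of NFE2L2, KEAP1, BACH1, NQO1, TXNRD1 and ME1 are all filled, and those of SRXN1, OSGIN1 and AKR1C1 are partly open.

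The partners of NRF2 and the proteins that set its turnover were read from a list of 23 genes, all of them tested. Of these, 5 were higher, 9 lower and 9 not called, with a median log2FC of -0.072. The lower calls were 9 of 23, beside 27.0% of all tested genes, and the higher calls 5 of 23, beside 27.8%. The lower genes included the small MAF partners. MAFF, a small MAF induced by stress signals, had FPKM values of 3.50, 3.78 and 3.41 in si-NC and 1.96, 1.71 and 1.59 in si-STRIP2 (log2FC -1.02, SE 0.090, edgeR adjusted p = 1.30e-11). MAFG and MAFK, named after their values were seen, had log2FC of -0.32 and -0.38 (edgeR adjusted p = 1.80e-06 and 0.000346).

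NFE2L1, the NRF2 relative that controls proteasome genes, was the most changed of the abundant genes on this list. Its FPKM was 72.87, 72.67 and 71.74 in si-NC and 39.90, 43.25 and 39.96 in si-STRIP2, with a log2FC of -0.82 (SE 0.041, edgeR adjusted p = 9.28e-18). BACH2, the relative of BACH1, was lower as well, at under 1 FPKM (log2FC -0.63, SE 0.141, edgeR adjusted p = 0.000278). The NFE2L2, NFE2L1, BACH1, BACH2 and small MAF transcripts were thus all called lower, while NFE2L3 (log2FC 0.012, edgeR adjusted p = 0.877) and NFE2 (-0.024, edgeR adjusted p = 0.963) were not called. NFE2L3 and NFE2 were also named after their values were seen.

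Genes of the ligases and of proteins that bind KEAP1 came next. RBX1, the RING subunit that works with CUL3, had a log2FC of 0.39 (SE 0.051, edgeR adjusted p = 7.03e-08). CUL3, named after its value was seen, was not called (-0.072, edgeR adjusted p = 0.141). It was called lower without si-NC replicate 3 (-0.098, edgeR adjusted p = 0.0415) and with a filter of 1 FPKM (-0.090, edgeR adjusted p = 0.0435). BTRC, the adaptor of a second ligase for NRF2, rose by 0.35 (SE 0.050, edgeR adjusted p = 4.03e-07) on the log2 scale. PGAM5, a mitochondrial phosphatase that binds KEAP1, rose by 0.38 (SE 0.044, edgeR adjusted p = 6.03e-09). Other turnover genes of the list, named after their values were seen, went both ways. DPP3 (log2FC 0.29, edgeR adjusted p = 0.000175) and GSK3A (0.15, 0.0159) were higher. GSK3B (-0.36, 3.58e-09) and PALB2 (-0.17, 0.0327) were lower. FBXW11 (-0.094, 0.0635), SQSTM1 (-0.094, 0.0511), SYVN1 (0.082, 0.301), CAND1 (0.031, 0.530) and DCAF11 (-0.034, 0.573) were not called. The remaining genes of the list were also named after their values were seen. CREBBP (log2FC -0.50, edgeR adjusted p = 6.75e-12) and EP300 (-0.33, 1.05e-06) were lower, and RXRA (-0.015, 0.825) was not called.

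Other genes known as NRF2 targets went in both directions. Of 43 such genes, 35 were tested, and 9 were higher, 14 lower and 12 not called, with a median log2FC of -0.091. The lower calls were 14 of 35, beside 27.0% of all tested genes, and the higher calls 9 of 35, beside 27.8%.

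The thioredoxin and NADPH genes were mostly higher. Of 7 tested, 5 were higher and 1 lower, beside 27.8% and 27.0% of all tested genes. Their median log2FC was 0.34. TKT, the transketolase of the pentose phosphate pathway, had FPKM values of 22.70, 22.09 and 22.43 in si-NC and 37.69, 37.78 and 37.57 in si-STRIP2 (log2FC 0.75, SE 0.039, edgeR adjusted p = 2.54e-17). PRDX1, an abundant peroxiredoxin, went from 306.9 to 459.7 FPKM on average (log2FC 0.58, edgeR adjusted p = 8.64e-13), and PGD, which makes NADPH in the same pathway, rose by 0.40 (edgeR adjusted p = 5.27e-10). IDH1, the cytosolic isocitrate dehydrogenase, was the exception, at 53.61, 54.35 and 50.00 FPKM in si-NC and 30.13, 30.38 and 29.45 in si-STRIP2 (log2FC -0.82, SE 0.041, edgeR adjusted p = 1.03e-17). The NADPH-producing enzymes thus split, with ME1 and IDH1 lower and PGD higher.

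Among the glutathione and cystine genes, 1 was higher and 2 lower of 5 tested, beside 27.8% and 27.0% of all tested genes. Their median log2FC was -0.019. That median is the value of GCLM, and with 1 library left out it ran from -0.056 (without si-STRIP2 replicate 3) to 0.013 (without si-STRIP2 replicate 1). The cystine importer SLC7A11 had a log2FC of -1.26 (SE 0.043, edgeR adjusted p = 2.48e-22). GCLC, the catalytic subunit of glutamate-cysteine ligase, had FPKM values of 18.16, 18.62 and 17.52 in si-NC and 14.06, 14.35 and 14.09 in si-STRIP2 (log2FC -0.36, SE 0.041, edgeR adjusted p = 3.79e-09). Its modifier subunit GCLM, named after its value was seen, overlapped between groups (-0.019, SE 0.049, edgeR adjusted p = 0.766). GSR, glutathione reductase, rose by 0.23 (SE 0.042, edgeR adjusted p = 1.67e-05).

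The carbonyl, quinone and xenobiotic enzymes had 5 lower and 1 higher of 9 tested, beside 27.0% and 27.8% of all tested genes. Their median log2FC was -0.30. CYP4F11, a fatty acid hydroxylase, had FPKM values of 6.06, 6.67 and 6.62 in si-NC and 2.52, 2.69 and 2.57 in si-STRIP2. That was the largest change on this list (log2FC -1.32, SE 0.085, edgeR adjusted p = 4.98e-15). CYP4F3, a close relative at under 1 FPKM, had a log2FC of -0.84 (edgeR adjusted p = 0.000618). PTGR1, a prostaglandin reductase, was the one called higher, by 0.14 (edgeR adjusted p = 0.00987), and it was not called without si-STRIP2 replicate 2 (edgeR adjusted p = 0.0736).

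The haem and iron genes had 2 higher and 3 lower of 7 tested, beside 27.8% and 27.0% of all tested genes. Their median log2FC was 0.048. It turned to -0.20 with a filter of 1 FPKM, which ABCB6 did not pass. Without si-NC replicates 1, 2 and 3 the median was 0.079, 0.028 and 0.028. HMOX1, the haem oxygenase that both NRF2 and BACH1 are known to control, had a log2FC of -0.41 (SE 0.085, edgeR adjusted p = 9.49e-05). BLVRB, a biliverdin reductase, fell by 0.54 (edgeR adjusted p = 7.15e-09) and FTH1, the ferritin heavy chain, fell by 0.50 (edgeR adjusted p = 7.81e-12). SLC48A1, a haem transporter, rose by 0.33 (edgeR adjusted p = 0.00295) and FECH, the last enzyme of haem synthesis, by 0.11 (edgeR adjusted p = 0.0409). The call of FECH was lost with any 1 of 4 libraries left out, namely si-NC replicate 2 (edgeR adjusted p = 0.119), si-NC replicate 3 (0.0990), si-STRIP2 replicate 2 (0.142) or si-STRIP2 replicate 3 (0.0740), and under DESeq2 (0.129).

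Among the exporters and remaining targets, 3 of 7 tested were lower, beside 27.0% of all tested genes, and 4 were not called by edgeR. ABCC2, an exporter of conjugated compounds, had FPKM values of 26.01, 26.08 and 31.26 in si-NC and 15.94, 15.84 and 14.40 in si-STRIP2 (log2FC -0.85, SE 0.053, edgeR adjusted p = 1.81e-15). PANX2, a pannexin, had a log2FC of -0.85 (edgeR adjusted p = 0.000179) and ABCC4 of -0.18 (edgeR adjusted p = 0.00387). The ABCC4 groups overlapped in FPKM, with si-NC replicate 3 at 7.90 and si-STRIP2 replicate 2 at 8.13. ABCC4 was not called without si-STRIP2 replicate 1 (edgeR adjusted p = 0.0595) or in the test against 1.2-fold. Nor was it called by limma with a pseudocount of 1 (adjusted p = 0.0615) or of 0.1 (0.0619).

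Within the aldo-keto reductase family, 7 of 13 genes were tested, 3 were higher, one of them AKR1C1, and 1 was lower, beside 27.8% and 27.0% of all tested genes. The median log2FC was 0.39, and it was 0.25 without si-NC replicate 3, 0.26 without si-STRIP2 replicate 1 and 0.23 under limma with a pseudocount of 1. AKR1B1, aldose reductase, had far more transcript than its relative AKR1B10. It went from 10.2 to 16.3 FPKM on average (log2FC 0.67, SE 0.052, edgeR adjusted p = 4.71e-13). AKR1A1, the most abundant of the family and named after its value was seen, was not called (log2FC -0.055, edgeR adjusted p = 0.297). AKR7A2 rose by 0.26 (edgeR adjusted p = 0.00182).

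**Figure D4:**
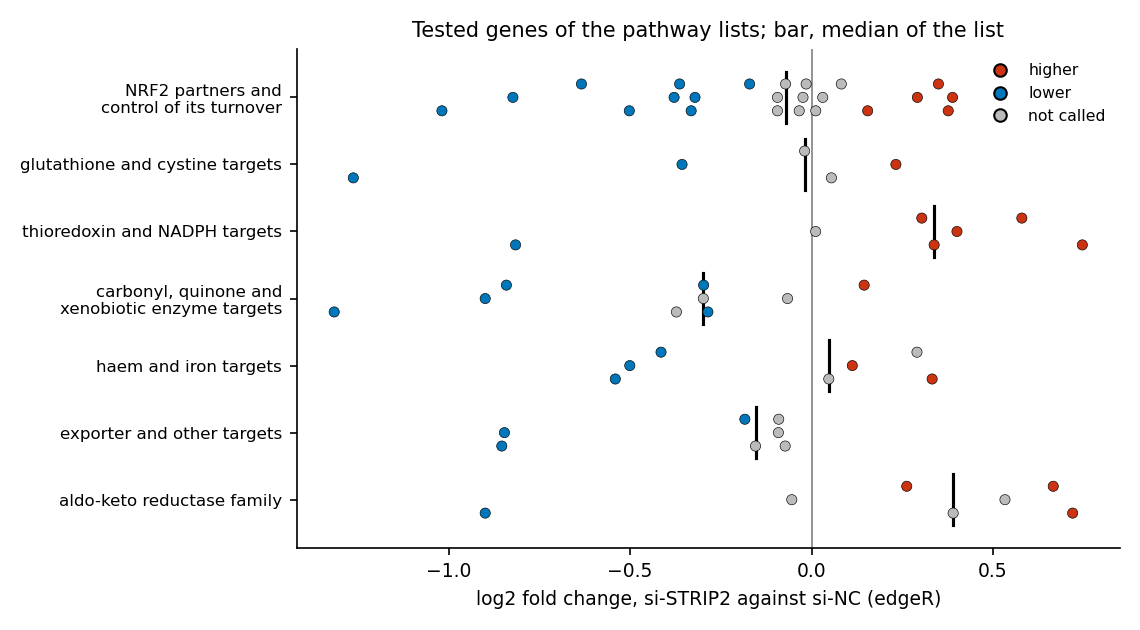
Log2FC of si-STRIP2 against si-NC (horizontal axis, edgeR) for each tested gene of the 7 pathway lists, with the median of each list as a vertical bar. Red points were called higher, blue points lower and grey points not called at an adjusted p under 0.05. The thioredoxin and NADPH genes lie mostly on the right (median 0.34) and the carbonyl, quinone and xenobiotic enzymes mostly on the left (median -0.30).

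The genes whose values over the 6 libraries lay closest to those of NFE2L2 were sought among 6655 genes with a mean of at least 5 FPKM. Likeness was the root mean square difference of log2 FPKM relative to the si-NC mean, so it largely reflects the difference between the groups. Among the closest were DDAH1 (0.023), CDC42BPA (0.025), DSC2 (0.027) and CAMK2D (0.028). BACH1 ranked 152 (difference 0.060), ME1 272, TXNRD1 393, NQO1 1712 and KEAP1 6109.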

How the data were processed

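Poly(A) RNA of HCT116 cells was sequenced as 6 libraries (3 si-NC, 3 si-STRIP2) with a directional kit, per the labels' protocols. The authors deposited raw counts and FPKM values per Ensembl gene, per the file headers. The submitters' processing notes name cutadapt 1.9.1, HISAT2 2.2.1, HTSeq 0.6.1 and GRCh38.p13. The annotation release and the strand setting are not given in the sources used here. The deposited FPKM differed from counts divided by exonic size and column total by at most 0.005. Total counts were 17184963 to 21721218, and low counts limit the precision of SRXN1, OSGIN1 and the aldo-keto reductases.

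After filterByExpr with a minimum count of 10, 15687 genes with 99.8% of counts remained. Counts were scaled by TMM and tested with edgeR 4.0.16 (quasi-likelihood F test, 2-sided, group as the only term) in R 4.3.3. P-values were adjusted by Benjamini-Hochberg over all tested genes, and a gene was called at an adjusted p under 0.05. Standard errors were obtained from the F statistic and the log2 fold change. Ratios were compared with an exact permutation test. Alternatives used DESeq2 1.42.0, limma 3.58.1 on log2(FPKM + 1) or log2(FPKM + 0.1), other filters and scaling, a test against 1.2-fold, a replicate block and fits without each library. Lists were described by counts and medians, with no test. The edgeR script was tested on simulated data.

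The members, lists and tests were chosen with earlier results of these data known. Named genes were the 10 members, STRIP2, the close copies of members, the 5 genes most like NFE2L2 (1 of them is not reported here), and up to 3 called genes per list and direction with the largest change. Other genes are marked in the text, or are overlapping neighbours on which a result turns. Chi-square per degree of freedom was 2.14 to 16.6 between libraries of a group and 35.8 to 42.6 between groups, so no pair agreed within sampling noise.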

Additional observations from a re-analysis of the deposited data

How the results depend on the processing

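NFE2L2, BACH1, TXNRD1 and ME1 stayed lower and KEAP1 higher, with an adjusted p under 0.05, in all 14 alternatives run, with log2 fold changes from -0.57 to -0.50, -0.52 to -0.42, -0.45 to -0.37, -0.47 to -0.43 and 0.39 to 0.48. NQO1 (-0.21 to -0.16) was lost only against 1.2-fold. SRXN1 kept its direction and lost its call in 9 of 14 alternatives, OSGIN1 in 7 of 14, and AKR1C1 in 6 of 12, with 1 further reversal when summed with AKR1C2 and AKR1C3 (-0.30). Among genes not called, NFE2L3 changed sign with the filter of 1 FPKM (-0.0067), and with 1 library left out the log2 fold change crossed 0 for NFE2L3 (-0.026 to 0.050), NFE2 (-0.13 to 0.16), GCLM (-0.056 to 0.013) and AGPS (-0.027 to 0.017), and the cause was not tested. Against 1.2-fold, 3723 genes were called (1780 higher, 1943 lower), with 1 member higher and 4 lower, 3 other targets higher and 11 lower, and 2 partners higher and 5 lower. The members called higher were 1 under DESeq2, the filter of 1 FPKM and limma with either pseudocount. With 1 library left out, the members called ranged from 1 to 2 higher and from 5 to 7 lower. Over these fits 7690 to 8494 genes were called. The log2 difference of the NFE2L2 to KEAP1 ratio ranged from -1.02 to -0.91, of NFE2L2 to BACH1 from -0.088 to -0.018, and of TXNRD1 to NQO1, an added ratio, from -0.27 to -0.19. The replicate block gave 8293 calls, with 2 members higher and 7 lower as without it. The deviations of same-numbered libraries correlated at -0.086, -0.013 and -0.072, and 0 of the 6 libraries correlated best with its own number. These values gave no sign that the numbers pair the libraries, but with 3 libraries per group they cannot exclude it. SRXN1, OSGIN1 and AKR1C1 had the fewest counts of the 9 tested members, and their calls depended on single libraries. AKR1B10 summed with AKR1B15, which was at 0, stayed below the filter and gave no value.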
